A study of Mus musculus with 2 samples.

Results

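The mitochondrial ribosomal protein genes are the genes whose symbols start with Mrpl, for proteins first assigned to the large subunit of the mitochondrial ribosome, or with Mrps, for those assigned to the small subunit. Every probe set of the array that the platform annotation names for a single such gene was taken, and symbols of pseudogenes were left out. This gave 76 genes on 156 probe sets, of 18194 genes on 34958 probe sets named in the same way. Their transcripts were measured in skeletal muscle of RXRγ mice, which carry an RXRγ transgene driven by the human α-actin promoter (line 4-3), and of non-transgenic control mice. Both were C57BL6 females at 4 months of age, and the sources used here do not name the muscle. The RNA of several animals of a genotype was combined, and 1 Affymetrix MG430 array was run on each pool. The study's methods give 5 animals per pool and the extraction protocol gives 3. Neither genotype was replicated. No value therefore carries an error, and no difference between the genotypes was tested. Fewer fibres of a type and less transcript per fibre cannot be told apart in such pools.

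Mitochondria keep a small genome that encodes core subunits of the respiratory chain, and they translate its messages on ribosomes of their own. The ribosomal RNAs come from the mitochondrial genome, whereas all of the ribosomal proteins are encoded in the nucleus, made in the cytosol and imported. Many of these proteins descend from bacterial ribosomal proteins, and others were added later. A cell needs the proteins of each subunit together, and in skeletal muscle their work is to supply the machinery of oxidative phosphorylation.

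The transgene and the tissue were checked first. Rxrg gave 9172 array units in RXRγ mice against 334.5 in control mice. The skeletal α-actin gene Acta1 had 10440 in RXRγ mice against 10999 in control mice, and all 10 genes listed as markers of fast fibres were detected, with log2 ratios of RXRγ over control mice from -0.75 to -0.08. The fast markers Ckm and Myh4 were lower by 0.4 or more on the log2 scale, 20% of the 10. The probe sets of each disagreed, with log2 ratios of -1.39 and -0.11 for Ckm and of -0.77 and -0.06 for Myh4. Of 8 genes listed as markers of slow fibres, 7 were lower by 0.4 or more. Of all measured genes, 20.1% were. Of the 7, Tnnt1, Tnni1 and Myl3 were above a signal of 250 in control mice alone and so had to be lower to be counted. Myl3 had 23.2 in RXRγ mice, too low for a fold. The summed signal of the 8 slow markers was 3741 in RXRγ mice and 10896 in control mice. Whether this had a part in the values below was not tested. Adipocyte markers summed to 5378 in RXRγ mice and 4780 in control mice. Among markers of other cells, no listed gene of adipocytes, fibroblasts, macrophages or Schwann cells that was measured differed by 0.4. The endothelial genes and the erythroid genes Hba-a1 and Alas2 did not reach a signal of 250. The globin gene Hbb-b1 had no probe set of its own, so these markers do not show how much blood was present.

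A gene was taken as measured when at least 1 of its probe sets had a signal above 250 on the brighter array, and its value is the mean log2 ratio of those probe sets. Of the 76 genes, 71 were measured, on 90 of the 156 probe sets. In 59 of them the log2 ratio lay between -0.34 and 0.37. At a threshold of 0.4 on the log2 scale, 3 were higher in RXRγ mice, Mrps35, Mrpl41 and Mrpl48, and 9 were lower, Mrpl33, Mrps28, Mrps2, Mrpl23, Mrps16, Mrps33, Mrps30, Mrpl42 and Mrpl32. The 3 higher genes are 4.23% of those measured, where 16.8% of all 3780 measured genes were higher, and the 9 lower genes are 12.7%, where 20.1% of all genes were lower. The median log2 ratio was -0.10 for the 71 genes and -0.04 for all genes. Under each of 11 other ways of processing the signals, the median of the genes then measured stayed below 0. The median of all genes was also below 0, except without a signal filter, where it was 0.05. The median of these genes less that of all genes was -0.06, and ran from -0.18 to -0.05 over the 11. Of the 71 genes, 46 (64.8%) were below 0, compared with 53.5% of all genes. Between the lower and the upper quartile the ratios ran from -0.27 to 0.08, and for all genes from -0.32 to 0.26. With a threshold of 0.2, 10 of the 71 were higher and 25 lower, where 29.2% and 34.4% of all genes were. With a threshold of 1, Mrps35 alone was higher and Mrpl33 alone lower, where 5.05% and 4.1% of all genes were.

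Of the 71 measured genes, 8 were above 250 on 1 array alone, so that their passing the filter depended on the genotype with the brighter signal. These were Mrps35, Mrpl10 and Mrpl19 in RXRγ mice, and Mrps2, Mrps30, Mrps25, Mrpl38 and Mrpl40 in control mice. The dimmer probe set of Mrpl48 was also above 250 in RXRγ mice alone. When a signal above 250 was required on both arrays, 63 genes remained, of which 1 was higher and 7 were lower, where 12.1% and 16.4% of all genes then were. Every probe set used for the 71 genes was above 150 on both arrays, the level below which no fold was read.

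**Figure D1:**
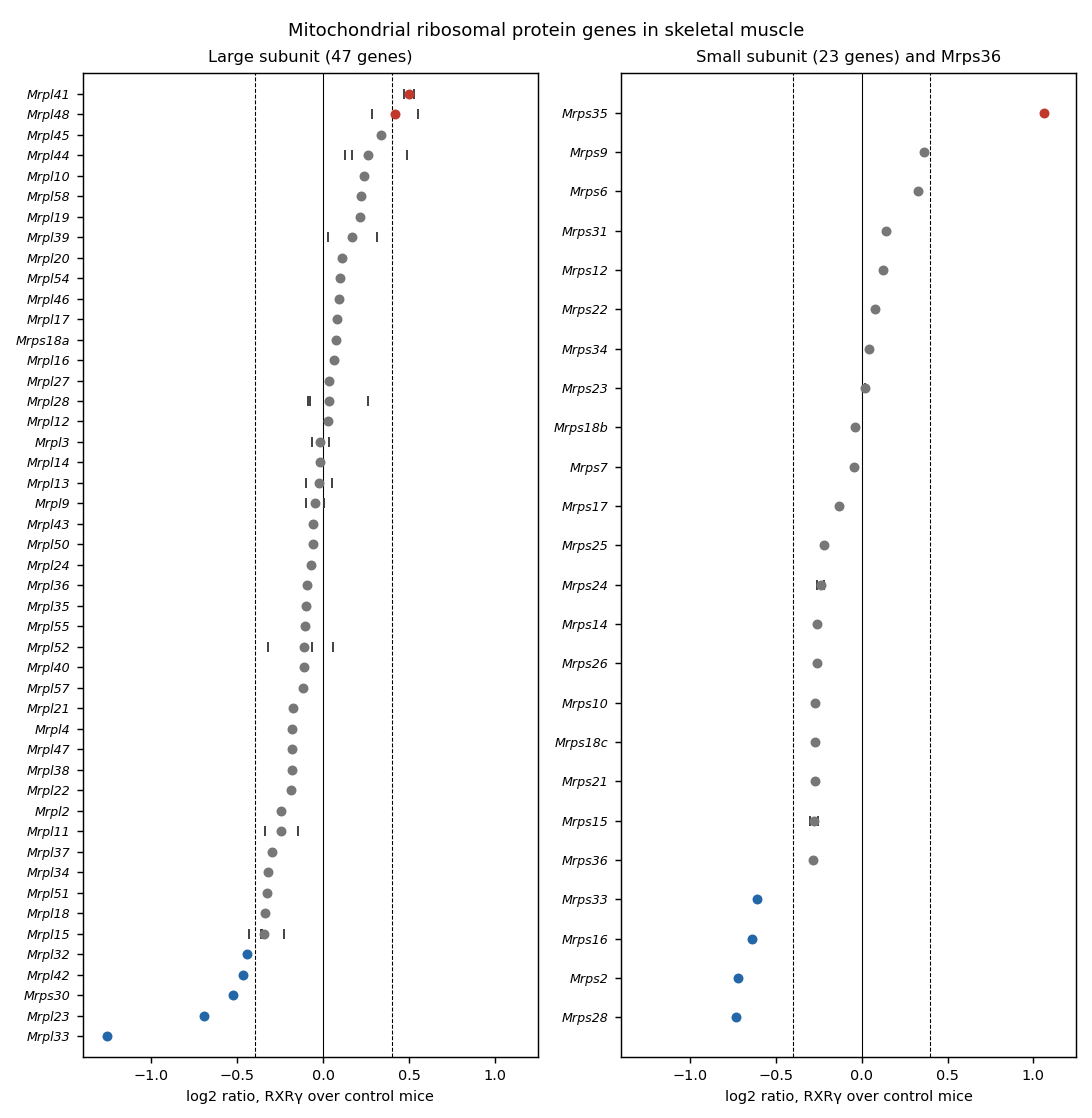
The horizontal axis is the log2 ratio, RXRγ to control mice, of the 71 measured mitochondrial ribosomal protein genes, in order of their value, with the large subunit in the left panel, the small subunit with Mrps36 in the right panel and 1 array per genotype. Filled circles are gene means (red, higher by 0.4 or more; blue, lower by 0.4 or more; grey, neither), short vertical strokes are the separate probe sets of genes with more than 1, and dashed lines mark 0.4 in either direction; Mrpl33 has the lowest value, -1.26, and Mrps35 the highest, 1.06.

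The promoter sequences are shown for a few genes because NRF-1 and GABP, a factor of the ETS family, are known activators of nuclear genes for mitochondrial proteins. RefSeq promoters of GRCm38.p6, each from 250 bases before to 50 bases after a gene start, were matched to 67 of the 76 genes. The NRF-1 letters, those in capitals in Mrpl32 and Mrpl39, read the same on both strands and were found in the promoters of Mrpl32, Mrpl39 and Mrpl9. That is 4.11% of the 73 promoters of these genes, and 0.97% of all 32851 promoters hold the letters. Among genes measured on the arrays the shares of genes were 4.84% of 62 and 2.49% of 3093, on 3 genes. The GABP letters CCGGAAG, on either strand, were found for 25 of the 67 genes, in 34.2% of their promoters and in 8.86% of all promoters. The shares of measured genes were 38.7% of the same 62 and 20.9% of 3093. No gene held both sets of letters. A direct repeat of AGGTCA with 1 base between the copies, the kind bound by RXR with PPAR, was in none of the 73 promoters and in 13 of all 32851, searched on both strands. At 0.04% of all promoters, the exact repeat is so rare that its absence here does not speak to such binding. The study searched glucose metabolism genes over a longer stretch and with motif matrices, so the searches are not alike. A lower gene and a gene within 0.4 are given for the NRF-1 letters, and a lower gene and a pair within 0.4 for the GABP letters. All are written 5′ to 3′ on the strand of the gene, with the letters found in capitals.
Mrpl32 (chr13:14613090-14613149, minus strand): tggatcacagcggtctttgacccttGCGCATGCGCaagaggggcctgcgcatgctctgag
Mrpl39 (chr16:84735335-84735394, minus strand): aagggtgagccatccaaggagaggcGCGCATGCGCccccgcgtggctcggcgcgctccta
Mrpl33 (chr5:31613923-31613954, plus strand): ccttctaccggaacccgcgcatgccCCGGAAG
Mrpl27 (chr11:94653711-94653767, plus strand): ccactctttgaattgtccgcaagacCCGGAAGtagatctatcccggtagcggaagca
Mrpl51 (chr6:125192085-125192141, plus strand): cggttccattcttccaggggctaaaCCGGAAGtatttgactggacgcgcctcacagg
In Mrpl33 the letters run across the gene start, and in the others they lie before it. The measured genes with the GABP letters had a median log2 ratio of -0.11 (24 genes, 1 higher and 3 lower) and those without them one of -0.10 (38 genes, 1 higher and 5 lower). Thus the same letters stood near the starts of both Mrpl33, with a log2 ratio of -1.26, and Mrpl27, with one of 0.03. A match of letters is a description of the sequence and not evidence of binding.

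In the large subunit, 47 of 49 genes were measured, counting Mrps30 and Mrps18a, whose proteins were found to sit in this subunit despite their names. The median log2 ratio was -0.07, with 2 genes higher (4.26%) and 5 lower (10.6%), where 16.8% and 20.1% of all genes were. The lowest value of all was that of Mrpl33, a small protein of bacterial type. Its signal was 526.5 in RXRγ mice and 1259 in control mice, a log2 ratio of -1.26. Its remaining probe set had 15.8 in RXRγ mice and 18.4 in control mice, too low for a fold, and the log2 ratio of the gene was -0.74 when that probe set was included.

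Mrpl23, which lies at the exit of the tunnel through which the new protein leaves, had 691.7 in RXRγ mice and 1121 in control mice (log2 ratio -0.70). Its single probe set kept it below -0.4 under all 11 alternatives, and so did that of Mrpl32. Mrpl32, known for being processed by the inner membrane m-AAA protease before it joins the ribosome, had 496 in RXRγ mice and 674.9 in control mice (log2 ratio -0.44). Mrpl42 gave one of the highest signals of the group, 2955 in RXRγ mice against 4090 in control mice. The log2 ratio was -0.47, but it fell short of the threshold with intensity-dependent centring, and it was -0.32 without a signal filter, which adds a dim probe set. Mrps30 was close to the filter, with 177.9 in RXRγ mice against 256.4 in control mice (log2 ratio -0.53).

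The higher genes of the large subunit were Mrpl41 and Mrpl48. Mrpl41, also known for binding the apoptosis regulator Bcl2, was measured at a pair of probe sets, with 403.6 and 482.2 in RXRγ mice against 280.5 and 348.5 in control mice. Their log2 ratios of 0.52 and 0.47 lay close together, although the gene mean of 0.50 fell just short of the threshold with median scaling. Mrpl48, a protein of the central protuberance at the top of the subunit, had 612.5 and 344.2 in RXRγ mice against 502.3 and 235.3 in control mice. Its log2 ratios were 0.29 and 0.55, so that only the dimmer probe set passed the threshold by itself. That probe set was above 250 in RXRγ mice alone and so had to be higher to be counted. The gene mean of 0.42 was over the threshold in 4 of the 11 alternatives. It was 0.29 when a signal above 250 was required on both arrays. Mrpl44, which has a fold like that of RNase III, had a gene mean of 0.26. Its 3 probe sets had log2 ratios of 0.12, 0.17 and 0.49. The study lists Mrpl41, Mrpl44 and Mrpl48 among its increased genes on these same arrays, so their direction is not independent evidence.

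The remaining large subunit genes differed by less. At the stalk, where translation factors dock, Mrpl10 had a log2 ratio of 0.24, Mrpl12 of 0.03 and Mrpl11 of -0.24. At the central protuberance, Mrpl18 had 756.7 in RXRγ mice and 958 in control mice (log2 ratio -0.34), while Mrpl38, Mrpl40, Mrpl27 and Mrpl46 lay between -0.18 and 0.09. Of 8 measured genes around the polypeptide exit, Mrpl23 alone passed the threshold. Mrpl45, which in human mitochondria helps to hold the ribosome at the inner membrane, was at 0.33, with 338.5 in RXRγ mice against 268.5 in control mice. Mrpl44, given above, was at 0.26, Mrpl39 at 0.17, Mrpl17 at 0.08, Mrpl50 at -0.06, Mrpl24 at -0.07 and Mrpl22 at -0.19. Thus the log2 ratios at each of these sites lay on both sides of 0. Most were short of the threshold, and their directions were not tested.
Mrpl51 was among the brightest, with 3013 in RXRγ mice against 3785 in control mice, short of the threshold at a log2 ratio of -0.33. Without a filter, which adds a pair of probe sets under 150, its mean turned to 0.12. Mrpl15 had more probe sets than any other of these genes, 8 in all. The 4 above 250 had 884.5, 523.7, 877 and 716.7 in RXRγ mice against 1135, 669.6, 1028 and 967.4 in control mice. All 4 were lower, with log2 ratios from -0.43 to -0.23, and the mean was -0.34. Mrpl58, which frees stalled ribosomes by cutting peptidyl-tRNA, was at 0.22. Mrpl19, the dimmest measured gene of this subunit after Mrps30, had 250.6 in RXRγ mice and 216.2 in control mice (log2 ratio 0.21).

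In the small subunit, 23 of 26 genes were measured. Their median log2 ratio was -0.22, and 1 gene was higher (4.35%) and 4 lower (17.4%), where 16.8% and 20.1% of all genes were. The median was thus below that of the large subunit, and it was so in 10 of the 11 alternatives. With a signal above 150 in place of 250, the order turned, at -0.05 for the small and -0.07 for the large subunit. Of the 23 genes, 8 lay within 0.2 of no difference, compared with 28 of 47 in the large subunit. Since genes of a subunit are not replicates, this difference was not tested.

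Mrps35 had the highest log2 ratio of all 71 genes, 1.06. Its signal was 381.2 in RXRγ mice against 182.9 in control mice. It has a single probe set, whose control signal was not far above 150. The lower genes were also measured by 1 probe set above 250 each. Mrps28 had 828.2 in RXRγ mice and 1375 in control mice (log2 ratio -0.73). Mrps16, whose loss of function in humans impairs mitochondrial protein synthesis, had 649.5 in RXRγ mice and 1009 in control mice (log2 ratio -0.64). Mrps33 had 451.6 in RXRγ mice and 688.6 in control mice (log2 ratio -0.61). These 3 genes stayed lower under all 11 alternatives. Mrps2, a protein of bacterial type, had 159.1 in RXRγ mice, close to the level of 150, and 262.2 in control mice (log2 ratio -0.72). Its other probe set went the opposite way, with 85.3 in RXRγ mice against 76.2 in control mice, and with it included the mean was -0.28.

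**Figure D2:**
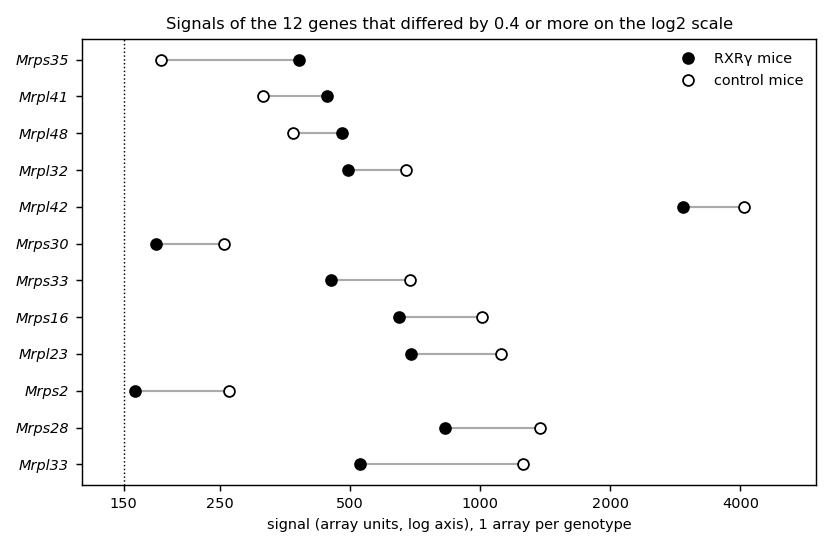
Signals of the 12 genes that differed by 0.4 or more on the log2 scale, on a log axis in array units, from the largest log2 ratio at the top to the lowest at the bottom. Filled circles are RXRγ mice and open circles control mice, 1 array each, gene means over probe sets above 250, and the dotted line marks 150. Mrps35, Mrpl41 and Mrpl48 have the filled circle to the right; Mrpl33 has the widest gap to the left, 526.5 against 1259, and Mrps2 in RXRγ mice lies next to the dotted line at 159.1.

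Of the other small subunit genes, 9 lay in a narrow band between -0.28 and -0.13 on the log2 scale. They included 2 of the brightest, Mrps21 with 1199 in RXRγ mice against 1449 in control mice, and Mrps14 with 1089 in RXRγ mice against 1302 in control mice. Mrps14 left this band when dimmer probe sets entered, with a log2 ratio of -0.03 at a signal above 150 and of 0.40, in the opposite direction, without a filter. They also included Mrps15 and Mrps24, each with a pair of probe sets that lay within 0.05 of each other. Mrps34, likewise among the brightest, had 1045 in RXRγ mice and 1016 in control mice (log2 ratio 0.04). Mrps23 had a pair of probe sets at 0.02. Also above 0 lay Mrps9 at 0.37, with 354.6 in RXRγ mice against 275.2 in control mice, Mrps6 at 0.33, Mrps31 at 0.14, Mrps12, whose bacterial counterpart takes part in decoding, at 0.13, and Mrps22 at 0.08. Mrps36, which has been assigned to the 2-oxoglutarate dehydrogenase complex and was counted in neither subunit, had 558 in RXRγ mice and 678.6 in control mice (log2 ratio -0.28).

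The 5 genes that did not reach 250 were Mrpl1, Mrpl49, Mrps5, Mrps11 and Mrps27. Mrps11 had 230 in RXRγ mice and 211.3 in control mice at its brighter probe set. Mrps5 had 166.1 in RXRγ mice and 157.8 in control mice at the brightest of 5 probe sets (log2 ratio 0.07). The probe sets of Mrpl49 disagreed, with 195 and 155.9 in RXRγ mice against 131.8 and 174.3 in control mice. Mrpl1 had 159.8 in RXRγ mice and 196.1 in control mice, and Mrps27 had 102.3 in RXRγ mice and 115.1 in control mice, too low for a fold.

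Agreement between probe sets of a gene is the only check these arrays offer, and it is a technical one. For the 14 genes with more than 1 measured probe set, the distance from the lowest to the highest log2 ratio within a gene had a median of 0.17 and reached 0.38. For the 1213 such genes of the whole array its median was 0.20. The probe sets lay on both sides of 0 in 5 of the 14. All 9 lower genes rested on 1 measured probe set, as did Mrps35, so that only Mrpl41 and Mrpl48 among the 12 had a second probe set above 250. Across the 71 genes, brighter probe sets went with lower ratios (Spearman's rho -0.32, 71 genes on the same 2 arrays), and across all measured genes rho was -0.05. The 39 genes with a mean signal under 500 had a median log2 ratio of -0.04, the 26 between 500 and 1000 had -0.21 and the 6 above 1000 had -0.30. For all genes the medians in these ranges were -0.03, -0.02 and -0.08. Of the 39, 26 and 6 genes, 2, 5 and 2 were lower, where 20.8%, 18.6% and 19.8% of all genes in the ranges were. The smaller share of lower genes in the group as a whole was thus that of the dimmer genes. In the same order, 3, 0 and 0 were higher, where 16.8% of all measured genes of any brightness were. Signal differs between probe sets for reasons other than transcript level, so this is no order of expression.

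**Figure D3:**
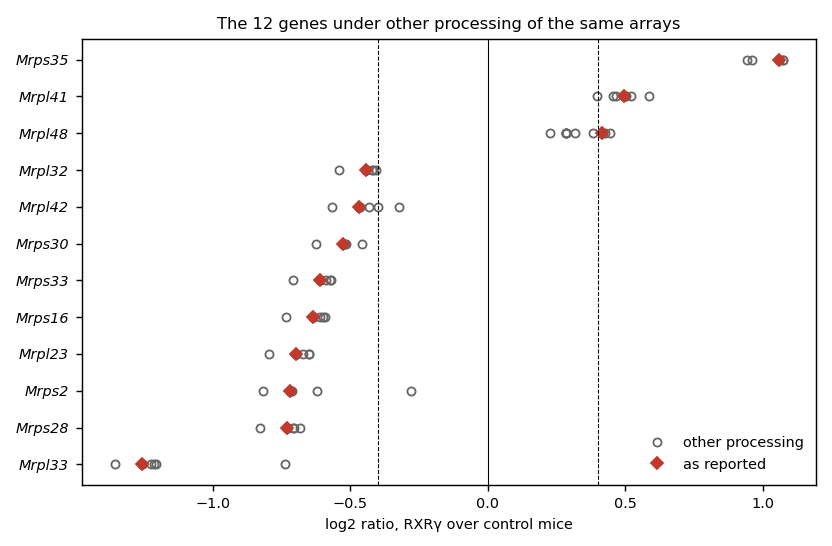
The log2 ratio, RXRγ to control mice, is plotted for the same 12 genes as reported (red diamonds) and under other scalings, filters and probe set choices (open circles, up to 11 per gene), with dashed lines at 0.4 in either direction. No circle crosses 0; those of Mrpl48 spread from 0.23 to 0.44, and the circle of Mrps2 at -0.28 is the value without a signal filter.

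Numbers in the names separate proteins with a bacterial counterpart (up to Mrpl36 and Mrps21) from later additions, although newer comparisons have moved some proteins between these classes. Of the 40 measured genes within the bacterial numbering, none was higher and 5 lower (median -0.10). Of the 31 above it, 3 were higher and 4 lower (median -0.11). The medians were thus nearly equal. The higher genes made up 9.68% of the later class, below the 16.8% of all genes, and the lower genes 12.5% of the bacterial and 12.9% of the later class, below the 20.1% of all genes.

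Proteins of the ribosome that carry other symbols were measured as well. Dap3, a GTP-binding protein of the small subunit, had 517 in RXRγ mice and 440.4 in control mice (log2 ratio 0.23). Gadd45gip1 and Ptcd3 were at 0.10 and -0.12. Chchd1 had 1525 in RXRγ mice and 1821 in control mice (log2 ratio -0.26). None of these 4 passed the threshold.

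Next came the factors that drive translation on these ribosomes. Of 14 listed, 5 were measured. Their median log2 ratio was -0.44, and 3 were lower and none higher, where 20.1% of all genes were lower. Of the 3, Gfm2 was above 250 in control mice alone. The listed factors with probe sets that did not pass 250 all had the higher signal in RXRγ mice at the brightest one. Most of these signals were under 150. Tufm had 249.9 in RXRγ mice and 236.7 in control mice, and Mrrf had 188.2 in RXRγ mice and 92.3 in control mice. The median thus describes the 5 measured genes and not the whole list. Gfm1, the elongation factor that moves the ribosome along the message, had 441.7 in RXRγ mice and 600.8 in control mice (log2 ratio -0.44). Gfm2, which splits ribosomes after termination, had 209.1 in RXRγ mice against 352 in control mice (log2 ratio -0.75). Mtif2, the initiation factor that brings the first tRNA, had 292.2 in RXRγ mice against 399.9 in control mice (log2 ratio -0.45). Slirp and Lrpprc, whose products act together on mitochondrial messages, were at -0.33 and 0.18. Of 22 genes of ribosome assembly and rRNA modification, 6 were measured and 1 was lower. This was Malsu1, a factor for the assembly of the large subunit, with 642.8 in RXRγ mice against 1086 in control mice (log2 ratio -0.76). Eral1, which binds the RNA of the small subunit, was at 0.05. Of 22 genes for charging mitochondrial tRNAs, 5 were measured and none differed by 0.4.

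The genes for copying and transcribing the mitochondrial genome, and for the factors that regulate nuclear genes of mitochondria, were listed with earlier results of these arrays known. Of 15 listed, 10 were measured, with 6 higher and 1 lower and a median log2 ratio of 0.44, where 16.8% of all genes were higher and 20.1% lower. Of the 6, Polg and Twnk were above 250 in RXRγ mice alone and so had to be higher to be counted. The difference from the ribosomal protein genes was not tested. Tfam, which packages the mitochondrial genome, had 864.8 in RXRγ mice and 476.7 in control mice (log2 ratio 0.86). The polymerase gene Polg and the helicase gene Twnk had 279 and 256.5 in RXRγ mice against 180.2 and 181.4 in control mice. Esrra, a nuclear receptor that drives oxidative genes, was at 0.46, and its coactivator gene Ppargc1a, with a mean of 302 in RXRγ mice against 223.8 in control mice, was at 0.44 over 3 probe sets that ran from 0.33 to 0.65. With a control mean below 250, part of these probe sets passed the filter in RXRγ mice alone. Gabpa, which encodes the DNA-binding subunit of GABP, had 345.4 in RXRγ mice and 255.3 in control mice (log2 ratio 0.44). The lower gene was Tfb2m, a transcription factor of mitochondria, with 599.4 in RXRγ mice against 891.8 in control mice. Nrf1, which encodes NRF-1, was too dim for a fold, with 47.1 in RXRγ mice against 36.9 in control mice.

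The cytosolic ribosome and complex I were set beside these genes. Of 35 measured genes for proteins of the cytosolic ribosome, none passed the threshold, and their log2 ratios ran from -0.16 to 0.24 with a median of -0.03. Of 32 measured genes for subunits of complex I, the respiratory enzyme with the most subunits made by mitochondrial ribosomes, 2 were lower and none was higher, with a median of -0.03. The 2 lower genes (6.25%) were Ndufa8, with 2020 in RXRγ mice against 2860 in control mice, and Ndufv3, with 2659 in RXRγ mice against 3740 in control mice. Of all measured genes, 16.8% were higher and 20.1% lower. The share within 0.2 of no difference was 50.7% of the mitochondrial ribosomal protein genes, 68.8% of the complex I genes and 94.3% of the cytosolic ones, against 36.3% of all measured genes. The median signal in RXRγ mice was 442.9 for the mitochondrial ribosomal proteins, 3287 for complex I and 3631 for the cytosolic ribosome, so the groups were compared at different brightness. Transcripts of the mitochondrial genome itself were not analysed here.

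**Figure D4:**
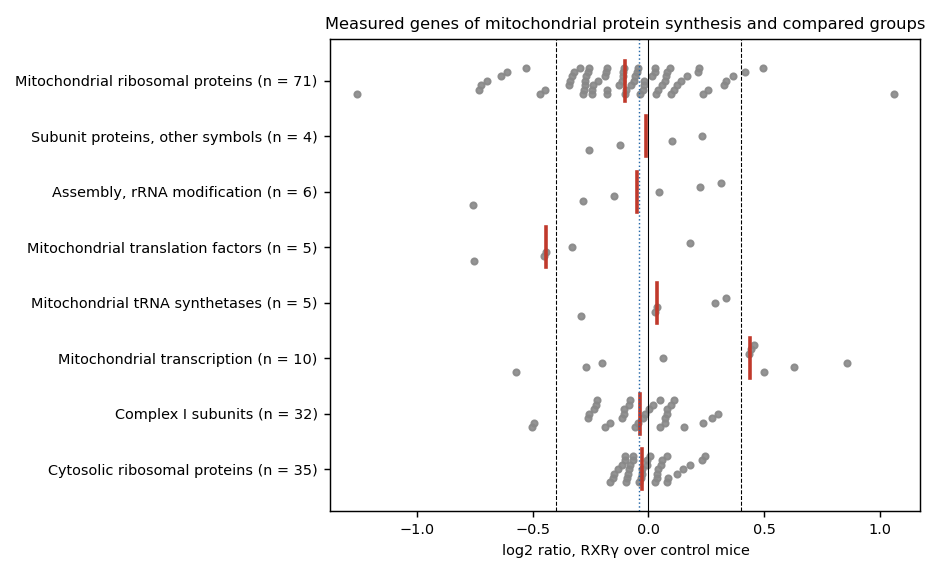
Each grey point is the log2 ratio, RXRγ to control mice, of a measured gene (spread vertically only for legibility) of the mitochondrial ribosomal proteins, of further lists of mitochondrial protein synthesis and of the compared groups, with the number measured in brackets. Red bars are medians, dashed lines mark 0.4 in either direction and the dotted line is the median of all genes, -0.04. The median is -0.44 for the 5 measured of 14 translation factors and 0.44 for the 10 measured of 15 genes of mitochondrial transcription. That of the ribosomal proteins lies between them at -0.10.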

How the data were processed

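RNA of 1 pool per genotype was measured on 1 Affymetrix MG430 array each. The deposited intensity values are probe set signals that the authors made with the Affymetrix Gene Chip software from perfectly matched and mismatched oligonucleotides. They are linear and were scaled by the authors, since the trimmed mean (2% left out at either end) was 100.0 on both arrays. The sources used here do not name the scaling algorithm, and detection calls were not used here. The number of arrays limits the precision.

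Probe sets with 1 symbol in the platform annotation were used (34958 of 45101; 932 had several symbols and 9211 none). Log2 ratios of RXRγ to control mice had no pseudocount and were averaged per gene over probe sets whose brighter signal passed 250. The threshold of 0.4 follows the study's methods. A gene with probe sets past the threshold in both directions was counted as neither. No p-values were computed. The genes named are those past the threshold, the 6 brightest and 3 dimmest, those the study lists, those never above 250 but above 150 on an array, and those whose probe sets above 250 disagree by 0.4, of which there were none; further genes were named after their values were seen. The members and lists were chosen with earlier results of these data known. Alternatives were median scaling, quantile normalization, loess centring, other filters, a floor of 150, a pseudocount of 32, probe set choices and thresholds. A value was taken as moved beyond 0.20, the median span of a gene's probe sets, and a count beyond 1.5 times. The steps were tested on simulated data. limma 3.58.1 under R 4.3.3 and Python 3.11.15 with pandas 2.3.3, numpy 2.4.6, scipy 1.17.1 and matplotlib 3.10.9 were used.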

Additional observations from a re-analysis of the deposited data

How the results depend on the processing

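With 1 array per genotype, alternatives show how a value depends on the processing and not how it would repeat. Over 11 alternatives, the median log2 ratio of the genes then measured ran from -0.24 to -0.05. The lowest was that of 35 genes with a signal above 500, and the highest that of all 76 genes without a filter. The range thus mixes changes of processing with changes of the genes included. The number of lower genes ran from 7 to 13, where 16.4% to 26.6% of all genes were lower. It was 7 of 35 with a signal above 500, 7 of 63 with a signal above 250 on both arrays and 13 of 70 with median scaling. The shares of all genes were then 21.2%, 16.4% and 26.6%. The number of higher genes was 1 of 70 with median scaling, 0 of 35 with a signal above 500 and 1 of 63 with a signal above 250 on both arrays. It was 9 of 76 without a filter, where dim probe sets enter. In the same order, 13.2%, 16.4%, 12.1% and 28.6% of all genes were higher. When probe sets were counted, 5 of 90 were higher, where 17.2% of all were. At a threshold of 0.2 there were 10 higher and 25 lower, and at a threshold of 1 there were 1 higher and 1 lower. Median scaling moved the median of all genes by -0.11, and the share of higher among the calls was then 7.14% in place of 25%, and over all genes 33.2% in place of 45.6%. Relative to that shift, the calls were 3 higher and 9 lower. Under no alternative did any of the 12 genes change sign. Of the other genes named by rule, Mrpl51 (0.12) and Mrps14 (0.40) did so without a filter, and Mrps34 (-0.06) with median scaling. No paired analysis was possible because each genotype has 1 array.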

Other observations

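RefSeq holds 78 symbols of this kind, and 2 of them, Mrpl30 and Mrpl53, have only probe sets that the annotation gives to several genes. The probe set shared by Mrpl30 and Gm6238 gave 1804 in RXRγ mice against 2046 in control mice, and the one shared by Mrpl53 and Ccdc142 gave 927 in RXRγ mice against 833.9 in control mice. Their log2 ratios were -0.18 and 0.15. A probe set shared by Mrps34 and Nme3 had 96.8 in RXRγ mice and 80.8 in control mice.

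The protein-coding genes on either side of the 12 genes past the threshold were looked up in the RefSeq annotation of GRCm38.p6. Of 24 such neighbours, 7 were measured, of which 2 were higher and 1 was lower, where 16.8% and 20.1% of all genes were. Numbers this small cannot be told from those shares. Igf2 was above 250 in RXRγ mice alone, and Socs2 in control mice alone. Igf2, an insulin-like growth factor gene that is imprinted, neighbours Mrpl23 and gave 559.9 in RXRγ mice against 196.1 in control mice at 1 probe set, with 11.4 in RXRγ mice against 20.9 in control mice at another. On the other side of Mrpl23, Tnnt3, the fast troponin T, had a log2 ratio of -0.24. The genes on both sides of Mrpl42 differed in opposite directions. Socs2, a suppressor of cytokine signalling, had 153 in RXRγ mice and 353 in control mice, and Ube2n, a ubiquitin-conjugating enzyme, had 543.6 in RXRγ mice and 375.2 in control mice. Psma2, a proteasome subunit gene beside Mrpl32, was at -0.12.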
